A study of Mus musculus with 105 samples.

Results

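Liver from mice with the Ikk KO genotype (IKO), a loss described by the study as restricted to hepatocytes, was compared between 1 month and 8 months. The comparison took 8 of the 105 libraries of the series: 4 libraries of IKO liver at 1 month and 4 of IKO non-tumour (NT) liver at 8 months, all from the first of the sequencing groups named in the labels. Every mouse behind these libraries, the WT (wild-type) and SKO (Shp2 KO) controls included, had received DEN (diethylnitrosamine), a carcinogen that hepatocytes activate and that produces liver tumours over months. At 8 months the submitters sampled tumour (T) and non-tumour tissue separately. Whether each non-tumour library came from an organ that also bore a tumour is not in the labels. IKO liver at 3 and at 5 months, 4 libraries each, gave the points in between, and 4 WT and 4 SKO libraries at each of the 2 ages served as the comparison of genotype. The promoter that drives Cre, the IKK subunit deleted, the sex of the mice and the hour of sampling are not given in the sources used here, nor whether the 4 libraries of a group came from 4 mice, so p-values measure the spread between libraries, which may be partly technical.

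The IKK complex consists of the kinases IKKα (Chuk) and IKKβ (Ikbkb) and the scaffold NEMO (Ikbkg). It phosphorylates the inhibitors that hold NF-κB in the cytoplasm, and in hepatocytes NF-κB feeds acute-phase, antigen-presentation and survival genes. Mouse liver also changes between weaning and adulthood as pulsatile growth hormone takes hold: major urinary protein (Mup) genes switch on in males, and zonated metabolism, bile acid handling and lipid storage mature.

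Ikbkb, at 8:22659212-22706589 on the minus strand of GRCm38, was read in every IKO library. Levels are given as normalised reads, the whole reads recovered from the deposited log2 values divided by each library's size factor, in replicate order, and a gene is said to be called, to rise or to fall where the adjusted p of the limma fit over all genes was under 0.05. Ikbkb gave 198.6, 247, 185.2 and 191.2 normalised reads at 1 month, 343.4, 332.3, 373.7 and 362.3 at 3 months, 260.7, 208.8, 215.7 and 316.3 at 5 months and 248.9, 382.7, 322.1 and 288.8 in non-tumour liver at 8 months. WT liver gave 296.1, 427.3, 318.5 and 334.3 at 1 month and 369.5, 322.7, 414 and 329.8 at 8 months. SKO liver gave 271.3, 233.9, 208.4 and 213.3 at 1 month and 413.2, 353, 340.2 and 333.8 at 8 months. All 4 young IKO and all 4 young SKO libraries thus lay below all 4 young WT libraries, young IKO overlapped young SKO, and at 8 months IKO overlapped both other genotypes. Ikbkb rose by 0.53 ± 0.14 (SE) on the log2 scale within IKO (limma adjusted p = 0.00542), and the difference from the WT change was 0.47 ± 0.2 (adjusted p = 0.278). In SKO it rose by 0.58 ± 0.14 (adjusted p = 0.00195), and the IKO change minus the SKO change was −0.05 ± 0.2 (adjusted p = 0.964). Neither Chuk nor Ikbkg was called (0.08 ± 0.14, adjusted p = 0.735, and −0.06 ± 0.19, adjusted p = 0.877). The assay, MAPS, reads the ends of polyadenylated transcripts, so a transcript that lacks only internal exons would still be counted and these levels do not check the deletion.

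Hepatocyte markers were read at high levels in every library: Alb ranged from 575179.1 to 753185.2 normalised reads at 1 month and from 285066.6 to 612855.1 at 8 months. Alb, Ttr and Apoa1 were not called, whereas the marker Ahsg fell, as given with the hepatocyte identity genes. The marker Serpina1a is not reported here. The Y-linked genes Ddx3y and Eif2s3y were read in all 8 libraries. The tumour markers Spink1, Ly6d and Gpc3 were lower in all 4 non-tumour libraries than in any IKO tumour. Spink1 read 0, 1.42, 0 and 2.52 against 72.1 to 287.8 in the 4 IKO tumours, Ly6d read 4.58, 27, 15 and 55.5 against 128.1 to 1776.5, and Gpc3 read 0, 28.5, 8.16 and 47.9 against 97.7 to 834.7. None of these 3 genes was called between the ages. Afp, a further tumour marker, was called higher at 8 months (1.27, limma adjusted p = 0.0187) and is described with the fetal genes. The levels of the marker H19 are not reported here. Replicates 2 and 4 of the 8-month group held the higher values of Ly6d and Gpc3. Spink1 lay under about 3 reads in all 4 libraries, too few to rank them. The part of stray tumour tissue in any result was not tested.

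The libraries held 7523350 to 9191660 reads over the listed genes at 1 month and 5881758 to 7104549 at 8 months, and mitochondrial transcripts took 18.5 to 23.7% and 23.4 to 29.9% of them. Of 7 mitochondrially encoded genes 3 rose, ND1 by 0.76 ± 0.18 (limma adjusted p = 0.00128), COX1 by 0.40 (adjusted p = 0.0465) and ND6 by 0.48 (adjusted p = 0.0368). The ND1 call held under all 17 alternatives run for it, while that of COX1 was lost under 9 of 17 and that of ND6 under 7 of 16. Differences with age varied with base composition and with transcript length. Over 5 groups of genes of about equal size ordered by the GC content of the last 500 transcript bases, the median log2 difference between 8 months and 1 month ran 0.15, 0.05, −0.02, −0.09 and −0.11 from the lowest to the highest GC content, and the corresponding WT medians ran from 0.08 to −0.08 (plot of the median change by GC content). The group of lowest GC content held 501 higher and 114 lower calls and that of highest GC content 94 and 362. By transcript length the IKO medians ran −0.06, −0.08, −0.04, 0.01 and 0.14 from the shortest to the longest group. The shortest group held 150 higher and 286 lower calls and the longest 481 and 121. The WT medians by length lay between −0.03 and 0.02, while SKO went from −0.05 in the shortest group to 0.16 in the longest. The IKO change minus the WT change had medians from −0.08 in the shortest to 0.13 in the longest group. With GC content and length corrected for, an alternative chosen after seeing the data, 2139 genes were called and 1752 of these were shared with the uncorrected result. A further set of libraries stood apart for genes of chromosome 7 and is described with Gdpd3.

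**Figure D1:**
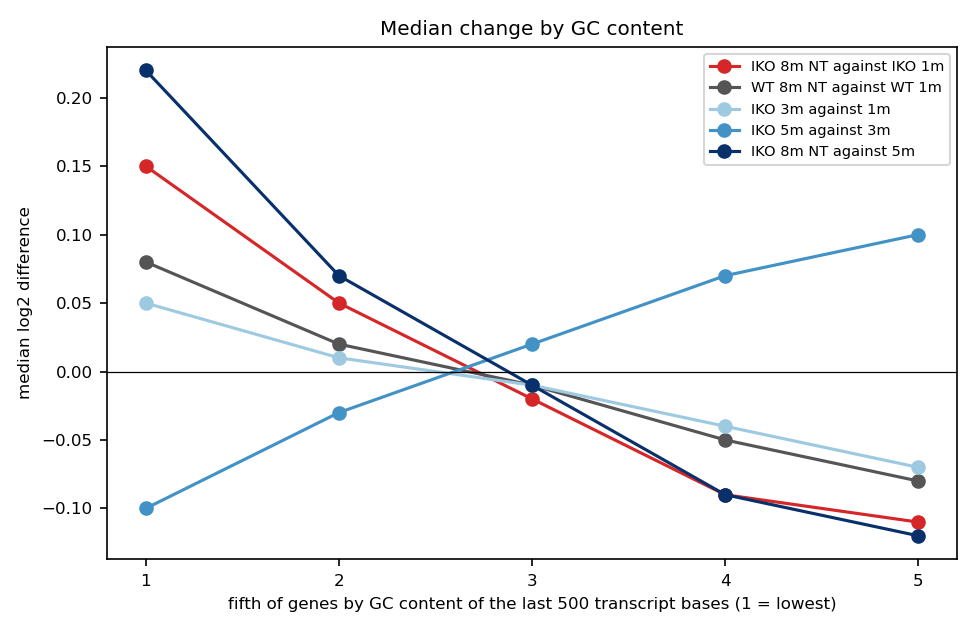
Median log2 difference between ages (y axis) for 5 groups of genes of about equal size. Groups are ordered by the GC content of the last 500 transcript bases (x axis, 1 is lowest). Each line is a separate comparison of ages, in IKO or WT, and lines for the steps between ages in IKO are included. Between 8-month non-tumour and 1-month liver of IKO the median falls from 0.15 at the lowest to −0.11 at the highest GC content.

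Between the 2 ages 2564 of 12966 genes passed an adjusted p of 0.05 in the limma fit (19.8%), 1311 of them higher at 8 months (10.1%) and 1253 lower (9.66%). A log2 difference of at least 1 was reached by 170 higher genes (1.31%) and 85 lower genes (0.656%). It was taken on the deposited scale, which compresses low counts. Some low genes with at least 2-fold changes in normalised reads are therefore not in these counts. With limma-voom on the recovered reads 1346 higher and 808 lower genes were called, 62.5% higher in place of 51.1%. The median log2 difference over all genes was −0.006, and 0.047 with limma-voom, which differs in scale and weights together, so the cause of the shift was not tested. The largest rises included genes of major urinary proteins, lipid droplets and lipid desaturation, and the largest falls included Gdpd3, Hamp2, Gh, Nrep and the class I gene H2-T23. The lists with the highest shares of lower calls were MHC class I with the immunoproteasome, the growth hormone and IGF axis, Kupffer cell markers and glucose metabolism (bar chart of gene lists). The counts of every list below are to be read beside the shares over all genes, 10.1% higher and 9.66% lower.

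**Figure D2:**
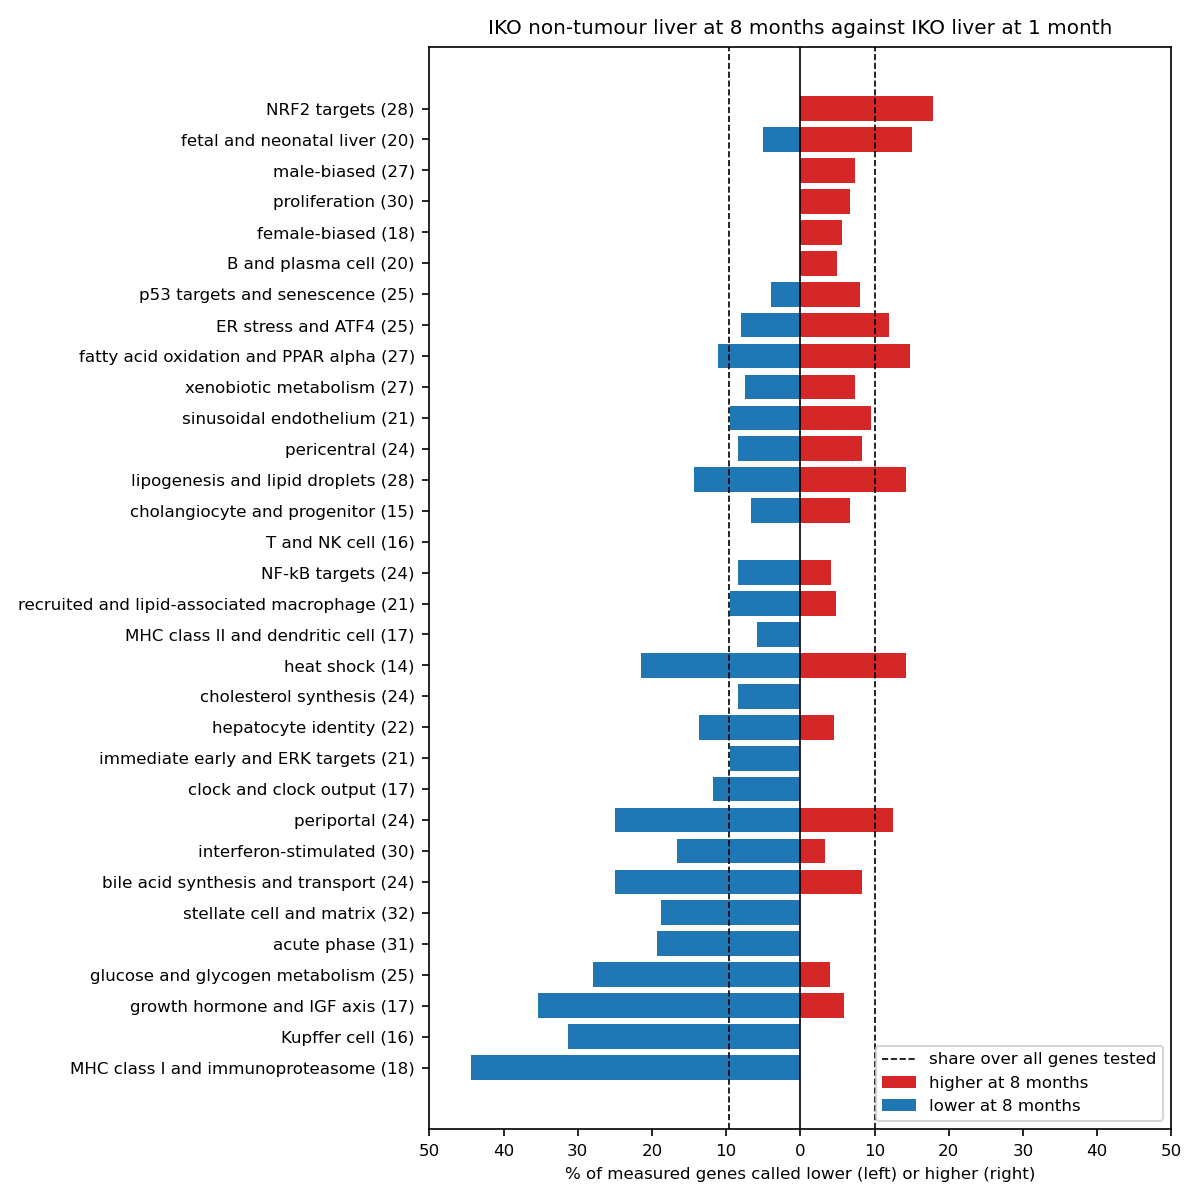
Share of the measured members of each gene list (count in brackets) that was called higher (red, right) or lower (blue, left) in IKO non-tumour liver at 8 months than in IKO liver at 1 month, in percent. Dashed lines mark the shares over all genes tested, 10.1% higher and 9.66% lower; 8 of 18 MHC class I and immunoproteasome genes and 5 of 16 Kupffer cell genes lie on the lower side.

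Major urinary proteins, the lipocalins that male mouse liver secretes into urine under pulsatile growth hormone, gave the largest rises. Mup12 (4:60737383-60741326, minus strand) read 49.9, 61.8, 20.6 and 32.7 at 1 month and 369.5, 974.5, 449.9 and 447.7 at 8 months, with no overlap and replicate 2 far above the other old libraries. The log2 difference was 3.09 ± 0.46 (limma adjusted p = 3.26e-06). Mup9 rose from 95.4, 244.6, 131.5 and 136.4 to 1322.4, 1996, 2322.9 and 663.3 (3.08 ± 0.65, adjusted p = 0.000512), and Mup1 from 65.5, 237.2, 70.9 and 77.8 to 500.9, 1647.4, 604.9 and 843.6 (2.74 ± 0.55, adjusted p = 0.000238). Mup17 rose by 3.02 ± 0.9 (adjusted p = 0.0125), a call that was lost without replicate 2 of the 8-month group. Mup11 read 5452.9, 5488.2, 3206.9 and 4142.2 against 15053.6, 28541.2, 12977.8 and 7031.6. Its groups did not overlap either, but the difference of 1.65 ± 1.01 was not called (adjusted p = 0.265).

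These genes are near-identical copies, and how reads that fit several copies were counted was not checked, so the value of a single Mup gene is uncertain. The promoter windows show how close the copies are around the start. The transcript ends, which the assay reads, were not compared. The 3 members with an entry in the RefSeq promoter table (GRCm38.p6, 250 bases before to 50 after the start) are printed 5′ to 3′ on the minus strand, Mup9 at chr4:60421903-60422202, Mup11 at chr4:60662346-60662645 and Mup17 at chr4:61595783-61596082, with the longest run that all 3 share, 154 bases, in capitals.
Mup9: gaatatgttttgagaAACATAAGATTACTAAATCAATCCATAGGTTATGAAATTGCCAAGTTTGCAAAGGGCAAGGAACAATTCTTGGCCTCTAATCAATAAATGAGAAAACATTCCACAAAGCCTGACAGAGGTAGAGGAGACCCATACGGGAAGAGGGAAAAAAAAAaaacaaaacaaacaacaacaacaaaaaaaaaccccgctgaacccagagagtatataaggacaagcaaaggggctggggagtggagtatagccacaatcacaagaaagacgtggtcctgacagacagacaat
Mup11: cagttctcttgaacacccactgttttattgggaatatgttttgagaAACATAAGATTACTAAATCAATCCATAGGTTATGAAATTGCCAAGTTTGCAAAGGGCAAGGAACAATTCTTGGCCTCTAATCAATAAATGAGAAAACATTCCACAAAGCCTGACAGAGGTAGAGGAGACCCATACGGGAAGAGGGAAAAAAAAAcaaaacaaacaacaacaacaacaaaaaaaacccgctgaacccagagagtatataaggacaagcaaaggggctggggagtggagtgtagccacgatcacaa
Mup17: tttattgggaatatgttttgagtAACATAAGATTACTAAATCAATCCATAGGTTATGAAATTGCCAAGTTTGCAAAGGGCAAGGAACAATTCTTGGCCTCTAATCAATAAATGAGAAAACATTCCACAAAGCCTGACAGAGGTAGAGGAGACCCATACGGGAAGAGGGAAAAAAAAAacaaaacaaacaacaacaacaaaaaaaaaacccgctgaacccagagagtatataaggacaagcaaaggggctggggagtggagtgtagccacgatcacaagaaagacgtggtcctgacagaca
Aligned, Mup9 and Mup11 were 98.9% identical over 268 bases, Mup9 and Mup17 98.6% over 292, and Mup11 and Mup17 99.6% over 276.

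**Figure D3:**
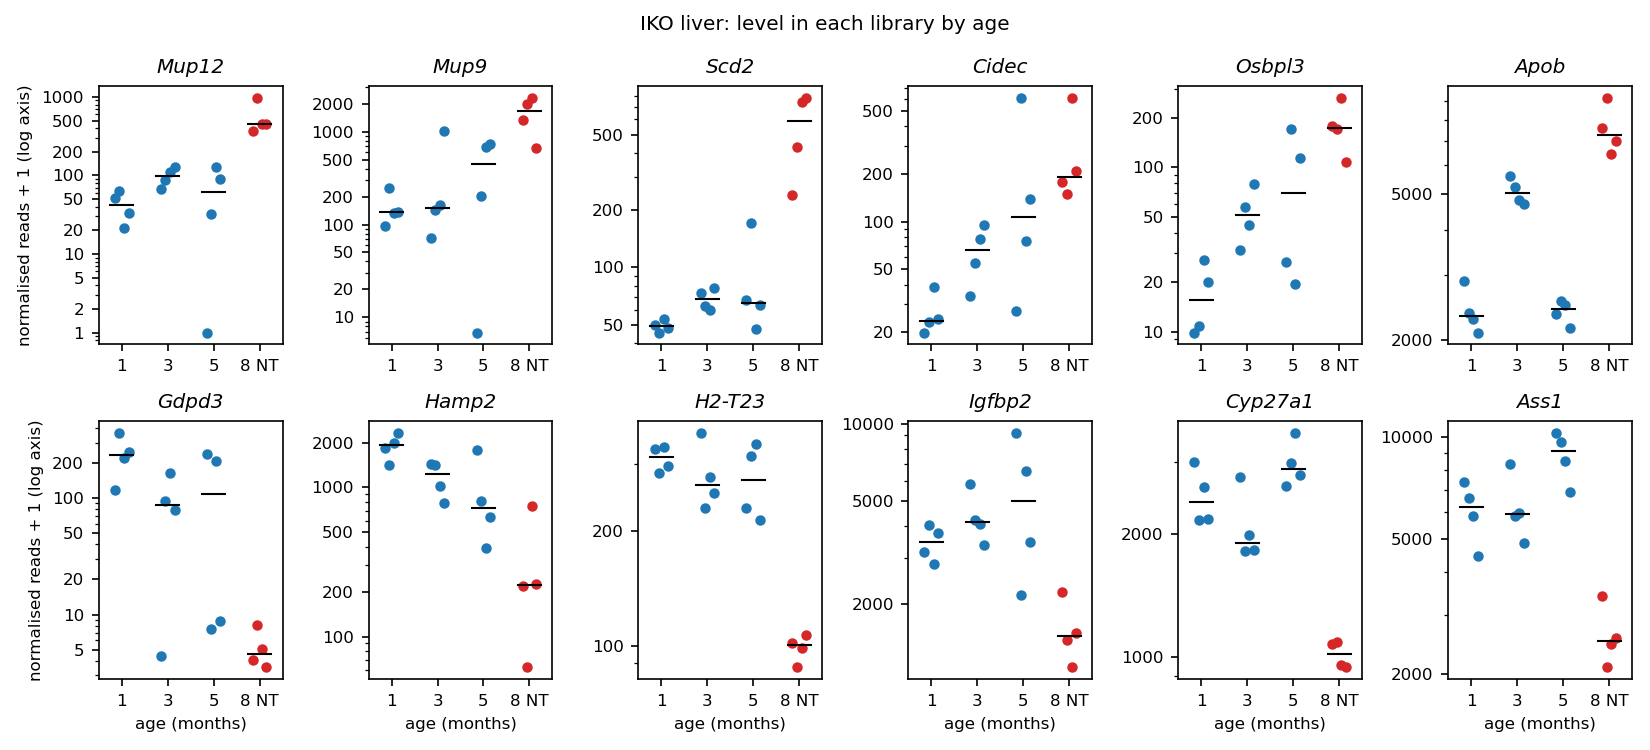
Normalised reads plus 1 (y axis, log scale) of 12 genes in each IKO library at 1, 3, 5 and 8 months (x axis; 8 NT, red, is non-tumour liver); bars are medians. Mup12, Scd2 and H2-T23 at 8 months lie outside the range of the 1-month libraries, and Gdpd3 at 3 and 5 months falls into high and low libraries.

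The sex-biased lists held few other calls. Of 27 measured male-biased genes 2 rose, Mup1 and Mup17, and none fell (median −0.08). Of 18 female-biased genes Cyp2b13 rose and none fell (median −0.33). Both counts lie below the share over all genes. In the growth hormone and IGF axis 1 of 17 genes rose and 6 fell (median −0.33). Igfbp2 and Igfbp3 encode binding proteins that carry IGFs in blood. Igfbp2 fell from 3163.7, 4031.8, 2853.6 and 3768.4 to 2218.8, 1446.8, 1129.5 and 1534.7 (−1.14 ± 0.32, limma adjusted p = 0.00742), and Igfbp3 from 31.1, 27.2, 62.9 and 49 to 3.05, 8.54, 16.3 and 10.1 (−1.12 ± 0.24, adjusted p = 0.000767). Socs2, a feedback inhibitor of growth hormone signalling, fell by 1.59 (adjusted p = 0.0154). Igfbp1, which is induced by fasting and stress, fell by 2.14 (adjusted p = 0.0136). Both overlapped between the ages. The Socs2 call was lost without 1-month replicate 4 or 8-month replicate 3, and the Igfbp1 call without 1-month replicate 3 or 8-month replicate 2 or 3.

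Transcripts of Gh itself, the pituitary hormone, were listed in liver at 174.2, 226, 140.6 and 99.9 normalised reads at 1 month and at 27.5, 56.9, 0 and 36.6 at 8 months (−2.04 ± 0.49, limma adjusted p = 0.00191). The same fall lay between 3 months (157.5, 155.9, 191.7 and 220.5) and 5 months (11.7, 97.9, 74.4 and 0), where it was called in turn (−2.06 ± 0.49, adjusted p = 0.0178). The call of that step was lost without 5-month replicate 4 and with only the groups of the comparison fitted (highest adjusted p = 0.223).

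Among 28 measured genes of lipid storage and synthesis 4 rose (Cidec, Cd36, Cidea and Mogat1) and 4 fell (Acly, Acacb, Elovl6 and Dgat2), with a median of 0.11. Over all genes 10.1% were higher and 9.66% lower, so the counts of this list were near the background. Scd2, a fatty acid desaturase more typical of fetal and extrahepatic tissue, read 48.8, 44.5, 52.6 and 47.1 at 1 month and 239.7, 431.1, 740.8 and 779.3 at 8 months (2.83 ± 0.52, adjusted p = 7.86e-05). It stood at 1798.7 to 3499.9 in the IKO tumours. Cidec, which fuses lipid droplets, rose from 18.9, 22.2, 37.7 and 23.1 to 177.1, 148, 606.2 and 206.8 (2.46 ± 0.59, adjusted p = 0.00212). Cidea, a droplet protein of the same family, was at 0 in all 4 young libraries and at 6.11, 2.85, 21.7 and 13.9 in the old ones, at least 3.33-fold higher when the young group is set to 3 reads per library. Fitm1, which partitions fat into droplets, rose from 197.5, 140.8, 330.4 and 213.3 to 1171.2, 1432.6, 1323.9 and 937 (2.36 ± 0.42, adjusted p = 6.03e-05). Osbpl3 and Clstn3 rose likewise, by 2.38 ± 0.36 and 2.37 ± 0.49.

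On the synthetic side Acly, which makes cytosolic acetyl-CoA, fell by 1.35 (adjusted p = 0.00427), although not without 8-month replicate 2, where it read 83.9 against 185.4 to 349.7 in the others. Acacb, the mitochondrial acetyl-CoA carboxylase, fell by 1.26 and overlapped between the groups. Dgat2, which completes triglyceride synthesis, fell from 4343.2, 3908.3, 4245 and 3865.5 to 2625, 1785.4, 2163.9 and 2324.1 (−0.88 ± 0.16, limma adjusted p = 5.82e-05). Of 27 genes of fatty acid oxidation 4 rose and 3 fell (median 0.27), also near the shares over all genes. The nuclear receptor Ppara rose from 721.3, 733.7, 774 and 723.5 to 1830.9, 1951.9, 1609.3 and 1315.3 (1.14 ± 0.18, adjusted p = 1.03e-05), and the dehydrogenase Acadm rose by 0.81 ± 0.12, whereas the thiolase Acaa2 and the trifunctional subunit Hadha fell by 0.71 and 0.62. Apob, the structural protein of very-low-density lipoprotein (12:7977648-8016835), gave the call with the smallest p among the hepatocyte genes named here. It read 2894, 2370.4, 2275.1 and 2092.7 at 1 month and 7568, 9178.9, 6421 and 6976.2 at 8 months (1.63 ± 0.17, adjusted p = 2.58e-09). Its course was not monotonic: 4710 to 5610.6 at 3 months and 2158.7 to 2557.3 at 5 months. In cholesterol synthesis 2 of 24 genes fell, Mvd and Tm7sf2, and none rose (median −0.19).

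Bile acid genes were called lower more often than higher, 6 against 2 of 24 (median −0.21). Cyp27a1, the sterol 27-hydroxylase of the alternative pathway, fell from 3008.3, 2166.6, 2611.2 and 2181.1 to 1075, 1088.3, 952.8 and 942 (−1.26 ± 0.23, limma adjusted p = 7.24e-05). Amacr, which racemises side-chain intermediates, fell by 1.11 (adjusted p = 5.92e-05), and the bile salt export pump Abcb11 fell by 1.08 (adjusted p = 0.000481). Cyp2c70, Slc27a5 and Klb were the other lower members. The canalicular transporter Abcc2 rose from 2528.9, 2443.3, 2622.7 and 2393.5 to 4284.9, 5231.1, 4107.6 and 3857.6 (0.79 ± 0.17, adjusted p = 0.000767), as did the uptake transporter Slco1b2.

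Of 24 periportal genes 3 rose and 6 fell (median −0.21). Ass1, a urea-cycle enzyme, read 7395.9, 6599.9, 5874.1 and 4473.7 at 1 month and 3412.9, 2095.6, 2456.1 and 2549.9 at 8 months (−1.2 ± 0.26, limma adjusted p = 0.000824). It had stood at 6879.3 to 10317.9 at 5 months. Asl, the next enzyme of the cycle, fell by 1.05 with 1 old library, replicate 1, inside the young range. Sds, Tat, Agxt and Fbp1 were the other lower members, and Apoa4, Hsd17b13 and Pigr rose. Of 24 pericentral genes 2 rose and 2 fell (median 0.16), near the shares over all genes. Notum, a secreted Wnt antagonist, fell from 97.7, 85.2, 72 and 95.1 to 7.64, 56.9, 24.5 and 50.4 (−1.06 ± 0.2, adjusted p = 0.000122), whereas the transcription factor Tbx3 rose by 0.98 ± 0.25 (adjusted p = 0.00368). Cyp2e1, the cytochrome that activates nitrosamines, read 18875.4, 15444.3, 16043.5 and 17068.4 at 1 month and 9253.9, 7978.2, 9023.9 and 9658.4 at 8 months. The 2 groups lay well apart, and the call (−0.91 ± 0.32, adjusted p = 0.0387) was nevertheless lost under 11 of 18 alternatives, the GC correction and limma-voom among them.

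In glucose and glycogen metabolism 1 of 25 genes rose and 7 fell (median −0.39). Ldha, lactate dehydrogenase, fell from 1935.3, 1383.5, 1442.8 and 1529.7 to 1047.6, 466.6, 886.2 and 716.3 (−1.03 ± 0.24, limma adjusted p = 0.00145). Pfkfb3, which sets the glycolytic activator fructose 2,6-bisphosphate, fell by 1.16 (adjusted p = 0.00763), and Pgk1 by 0.84 (adjusted p = 0.00103). Gys2, Fbp1, Tpi1 and Igfbp1, which the growth hormone list also holds, were the other lower members, and the glucose transporter Slc2a1 rose by 0.61 ± 0.17. Xenobiotic genes gave 2 rises and 2 falls among 27 (median −0.05), no more than the shares over all genes. Por, the electron donor of microsomal cytochromes, fell by 0.9 and Ugt1a1 rose by 0.92. All 5 called members among 28 NRF2 targets rose and none fell (median 0.25). Gclm, the modifier subunit of glutathione synthesis, rose from 407.2, 360.7, 290.4 and 331.5 to 647.5, 708.5, 589.9 and 547.3 (0.8 ± 0.17, adjusted p = 0.000423), with Gclc, Gsta2, Ephx1 and Txnrd1.

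Acute-phase proteins, which hepatocytes secrete in response to inflammatory cytokines, gave no rise and 6 falls among 31 genes (median −0.34). Complement C3 fell from 23041.1, 25694.3, 19847.1 and 19264.9 to 13598.3, 9730.9, 8417.6 and 11658.4 (−1.03 ± 0.24, limma adjusted p = 0.00143). C4b fell by 0.96 and the fibrinogen chain Fga by 0.84, and Lbp and Crp were also lower. Hamp2, a copy of the iron hormone hepcidin whose reads may be hard to tell from those of Hamp, read 1840.9, 1413.1, 1982.4 and 2332 at 1 month and 218.4, 61.2, 747.6 and 224.5 at 8 months (−2.89 ± 0.94, adjusted p = 0.0225), a call lost without 1-month replicate 4 or 8-month replicate 2. Among 22 hepatocyte identity genes 1 rose (Apob) and 3 fell (Cebpb, Cebpa and Ahsg), with a median of −0.14. The summed level of that list was 1385000 to 1531000 normalised reads at 1 month and 791100 to 1212000 at 8 months, a sum led by Alb, which was itself not called (−0.63 ± 0.3, adjusted p = 0.133).

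MHC class I and immunoproteasome genes had the highest share of lower calls of any list, 8 of 18, and no member rose (median −0.27; with GC content corrected for, 7 fell and 1 rose). H2-T23, a non-classical class I gene that presents leader peptides (17:36029773-36032855, minus strand), read 327.4, 282.9, 331.5 and 295.9 at 1 month and 100.8, 86.8, 97.9 and 105.9 at 8 months (−1.44 ± 0.2, limma adjusted p = 1.05e-06). The 4 old libraries lay close together and far below the young ones, and WT liver changed by −1.3 as well (adjusted p = 1.87e-05). H2-Q7 fell from 396.2, 459.5, 395.6 and 473.7 to 178.7, 167.9, 183.5 and 179.1 (−1.16 ± 0.24, adjusted p = 0.000385), and the classical heavy chain H2-D1 by 0.65 (adjusted p = 0.00435). Psmb8 and Psmb10, catalytic subunits of the immunoproteasome, fell by 0.73 and 0.76, and Tap2, H2-T22 and H2-Q6 were also lower. The summed level of the list nevertheless ran the other way, from 81260 to 90060 at 1 month and from 91480 to 109100 at 8 months, so the sum was higher through members that were not called. H2-Q and H2-T genes are close copies, and how reads that fit several of them were counted was not checked.

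The promoter windows of H2-T23 (chr17:36032652-36032951, minus strand) and H2-D1 (chr17:35262844-35263143, plus strand) are shown because their genes fell together and class I promoters are textbook carriers of a CCAAT box. Capitals mark every match to CCAAT on either strand (RefSeq promoter table, GRCm38.p6).
H2-T23: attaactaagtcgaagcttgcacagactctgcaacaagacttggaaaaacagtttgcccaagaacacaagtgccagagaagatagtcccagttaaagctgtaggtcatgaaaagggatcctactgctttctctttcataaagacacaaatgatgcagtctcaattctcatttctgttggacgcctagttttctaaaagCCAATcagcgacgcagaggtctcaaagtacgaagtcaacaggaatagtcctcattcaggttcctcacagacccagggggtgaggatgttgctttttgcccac
H2-D1: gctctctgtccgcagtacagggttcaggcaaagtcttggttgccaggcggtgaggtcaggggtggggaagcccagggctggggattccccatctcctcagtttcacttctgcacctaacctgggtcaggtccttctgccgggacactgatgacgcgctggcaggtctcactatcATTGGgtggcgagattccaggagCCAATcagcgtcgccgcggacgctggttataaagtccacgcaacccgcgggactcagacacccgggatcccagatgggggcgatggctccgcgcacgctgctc
CCAAT was present in 11 of the 16 genes of the list with a window (68.75%) and in 37.41% of all 32851 windows. The share of the list is per gene and that of the background per single window. A gene with several windows has more chances to match, so these shares cannot be compared and show no enrichment. A match describes the letters only.

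Interferon-stimulated genes gave 1 rise and 5 falls among 30 (median −0.18). Oas2 fell from 48.8, 45.7, 37.7 and 37.5 to 13.7, 15.6, 10.9 and 12.6 (−0.91 ± 0.2, limma adjusted p = 0.000722) and Oasl2 by 0.71, with Gbp2, Usp18 and Irf7 also lower. Ifit2 rose by 0.74 ± 0.23, a call lost with the GC correction and without 1-month replicate 1 or 8-month replicate 2 or 4. With GC content corrected for, 3 members of the list were lower and none higher. Of 24 NF-κB targets 1 rose and 2 fell (median −0.07), no more than the share over all genes. Cxcl10 (−0.81 ± 0.26, adjusted p = 0.023), Sod2 (−0.34 ± 0.13, adjusted p = 0.0476) and Nfkbie (0.52 ± 0.18, adjusted p = 0.0333) each lost the call under limma-voom.

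Markers of Kupffer cells, the resident macrophages of the sinusoids, fell in 5 of 16 cases and rose in none (median −0.46). C1qb, a complement subunit made by macrophages, read 1859.8, 3266, 2636.4 and 2675.9 at 1 month and 1462.9, 1071.3, 1130.9 and 1368.2 at 8 months (−1.02 ± 0.25, limma adjusted p = 0.00222). Clec4f, a lectin of Kupffer cells, fell from 618.1, 851.1, 640.2 and 545.8 to 366.5, 249, 269.1 and 370.8 (−1.02 ± 0.29, adjusted p = 0.00909), and Cd5l, Csf1r and C1qc were also lower. Vsig4, which marks the same cells, was not called (402.8, 641.1, 595.6 and 559.2 against 633.7, 522.1, 507 and 808.3). The summed level of the list was 5399 to 8789 at 1 month and 3548 to 5096 at 8 months, without overlap. In bulk tissue fewer cells of a type and less RNA per cell cannot be told apart. With GC content corrected for, 3 of the 16 were lower (median −0.34). Among 21 genes of recruited and lipid-associated macrophages Trem2 rose and Tyrobp and Ctsd fell, the first 2 with calls that single libraries ended.

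Stellate cell and matrix genes gave 6 falls and no rise among 32 (median −0.23). Col3a1 fell from 56.6, 33.4, 56 and 60.5 to 10.7, 9.96, 19 and 18.9 (−1.04 ± 0.25, limma adjusted p = 0.00184) and the collagenase Mmp2 from 69.9, 107.5, 86.9 and 96.1 to 19.9, 15.6, 46.2 and 36.6 (−1.15 ± 0.28, adjusted p = 0.00208). The stellate cell marker Lrat (0.23 ± 0.19) and the matrix genes Dcn (0.45 ± 0.23) and Col1a1 (−1.04 ± 0.47, adjusted p = 0.115) were not called. The estimate for Col1a1 was as large as that for Col3a1. The markers Reln and Pdgfrb are not reported here. The summed level overlapped, 6781 to 10080 against 5942 to 8955. Of 21 sinusoidal endothelial genes F8 and Rspo3 rose and Eng and Oit3 fell, while Stab2 was not called. Among 15 cholangiocyte and progenitor genes Sox9, a ductal transcription factor, rose from 31.1, 43.2, 38.9 and 49 to 68.7, 106.7, 160.4 and 99.6 (1.01 ± 0.28, adjusted p = 0.00696).

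Lymphocyte markers were called once. Igkc, the immunoglobulin kappa constant region, was the single called gene of 20 B and plasma cell genes, at 199.7, 609, 404.7 and 729.3 against 2023.3, 1362.9, 9087.7 and 525.9 (2.06 ± 0.76, adjusted p = 0.0485 in limma). The groups overlapped and the call was lost with the GC correction and under limma-voom. The summed level of that list ran from 376.2 to 1098 at 1 month and from 852.5 to 9788 at 8 months. No gene was called among 16 T and NK cell genes, 9 neutrophil genes or 8 erythroid genes.

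Proliferation genes were at low levels at both ages, and 2 of 30 rose, below the share over all genes (median 0.07). Plk1, a mitotic kinase, read 8.88, 6.18, 2.29 and 3.84 at 1 month and 10.7, 24.2, 12.2 and 26.5 at 8 months (0.69 ± 0.19, limma adjusted p = 0.00657). Mki67 read 3.33, 7.41, 2.29 and 2.88 against 13.7, 12.8, 15 and 15.1 (adjusted p = 0.0469), a call lost under 11 of 17 alternatives, the GC correction among them. Of 20 fetal and neonatal genes 3 rose and 1 fell (median 0.20). The rises were those of Scd2, Afp and Peg3, and the fall that of the oncofetal RNA-binding protein Igf2bp3. Peg3 (0.74, adjusted p = 0.028) lost its call with the GC correction, which left 2 rises in the list, and without 1-month replicate 1 or 2 or 8-month replicate 2 or 3 (highest adjusted p = 0.122). Afp read 2.22, 1.24, 1.14 and 4.8 against 6.11, 35.6, 25.8 and 51.7 (1.27 ± 0.4, adjusted p = 0.0187). Its call was lost under limma-voom and without 8-month replicate 2 or 4, the libraries that also held the higher Ly6d and Gpc3. Heat shock genes divided into 2 that rose (the chaperonin Hspe1 by 1.3 ± 0.19, adjusted p = 3.32e-06, and Hsp90ab1) and 3 that fell (Dnajb1, Bag3 and Hspa1b) of 14 (median −0.06). In the clock list the output factor Dbp fell by 1.0 on the log2 scale (adjusted p = 0.000166) and Per2 was also lower, of 17 genes; Dbp changed by −1.03 in WT. The hour of sampling is not in the labels, and its part in these values cannot be told apart from age. Among the remaining lists p53 targets gave 2 rises and 1 fall of 25, ER stress and ATF4 genes 3 and 2 of 25, immediate early and ERK targets 0 and 2 of 21, and MHC class II genes 0 and 1 of 17. None of these counts lay far above the shares over all genes, 10.1% higher and 9.66% lower.

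The steps between ages held unequal numbers of calls. Between 1 and 3 months 700 genes were called (5.4%), between 3 and 5 months 241 (1.86%) and between 5 and 8 months 3683 (28.4%), although the middle count fell to 75 under limma-voom and 89 with GC content corrected for. Clstn3 and Nalf2 led the rises of the first step (1.87 ± 0.49, limma adjusted p = 0.0147, and 1.51 ± 0.47, adjusted p = 0.0439), both of which limma-voom did not call. Hmgn5, a nucleosome-binding protein, and Clint1, an adaptor of vesicle traffic, rose by 1.37 and 1.49 at 3 months, fell by 1.55 and 1.40 at 5 months and were higher again at 8 months, each step called (Clint1 by 1.46, adjusted p = 3.34e-06). Mup12 and Mup1 were called in the last step: Mup12 rose by 3.16 ± 0.46 (adjusted p = 5.45e-07) and Mup1 by 3.11 ± 0.55 (adjusted p = 1.52e-05), after 5-month values of 0, 31, 126.4 and 89.5 for Mup12. The library at 0, 5-month replicate 1, stood apart: its male-biased genes summed to 29990 normalised reads against 148300 to 332200 in the other 5-month libraries and its female-biased genes to 15410 against 2239 to 3291, while it held 72.3 normalised reads of the Y-linked Ddx3y. Without it the rise was 2.46 for Mup12 and 2.37 for Mup1, both still called. Mup11 was also called in this step (2.65, adjusted p = 0.0419) but lost its call under 8 of 18 alternatives and gave 0.89 without that library (adjusted p = 0.505). Of 18 MHC class I and immunoproteasome genes 9 fell and 1 rose in the last step, in which 14% of all genes were lower and 14.4% higher, and 2 fell and 2 rose in the first, with 2.52% and 2.88% of all genes. GC-dependent differences ran between the same groups: the log2 level of the genes of lowest GC content relative to those of highest, against the average library, was −0.275 to −0.175 in the 5-month libraries and 0.095 to 0.209 in the 8-month non-tumour libraries.

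The same ages were compared in WT and SKO liver, which share no library with the IKO comparison. In WT 908 genes were called (7%) and in SKO 3095 (23.9%). Of the 2564 IKO calls 462 were also called in WT in the same direction (18% of the IKO calls and 50.9% of the WT calls) and 1 in the opposite direction, Cc2d2a. The sign of the WT difference was the same for 2169 (84.6%), with a median size of 0.603 in IKO and 0.255 along the same direction in WT. With SKO 1428 calls were shared in the same direction (55.7% of the IKO and 46.1% of the SKO calls) and 12 were opposite. A same-sign share over all genes was not computed. Genes of lowest GC content relative to highest lay at −0.187 to −0.102 in young IKO and −0.118 to −0.04 in young SKO libraries. Young WT libraries lay at 0.01 to 0.197. At 8 months the ranges were 0.095 to 0.209 in IKO, 0.113 to 0.308 in SKO and 0.189 to 0.266 in WT. The part of this shift in the overlap was not tested. Mup12, Scd2, Cidec, Fitm1, Hamp2, H2-T23 and Apob were called in WT too, with WT differences of 2.38, 1.62, 2.26, 3.12, −5.14, −1.3 and 0.88. In WT, where 3.99% of all genes were higher and 3.02% lower, 4 of 18 MHC class I and immunoproteasome genes, 5 of 30 interferon-stimulated genes, 7 of 32 stellate and matrix genes, 2 of 17 growth hormone genes and 1 of 16 Kupffer cell genes fell and none of these lists held a rise. Of 25 glucose genes 1 rose and none fell in WT, and 6 of 14 heat shock genes rose. In SKO, where 11% of all genes were higher and 12.8% lower, 3 MHC class I and immunoproteasome genes rose and 3 fell (median −0.11), 3 interferon-stimulated genes rose and 1 fell (median 0.11), 3 stellate and matrix genes rose and 3 fell (median −0.24), 3 growth hormone genes rose and 2 fell (median 0.08) and 3 Kupffer cell genes rose and none fell (median 0.15). No glucose gene rose and 4 fell in SKO, and 1 heat shock gene rose and 4 fell. For the Kupffer cell list the IKO change minus the SKO change was negative for all 16 genes (median −0.63), with none called. The IKO change minus the WT change had a median of 0.04 there. Against SKO, 20 of 21 sinusoidal endothelial genes (median −0.66, 1 called) and 13 of 17 MHC class II genes (median −0.46) were negative too. Recruited macrophage genes had a median of 0.03 and B and plasma cell genes of 0.17. Genes of a list come from the same libraries and are not independent. These list counts were not tested against those of IKO. A call in one genotype and not in another does not show a difference, so the difference of the changes was tested.

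**Figure D4:**
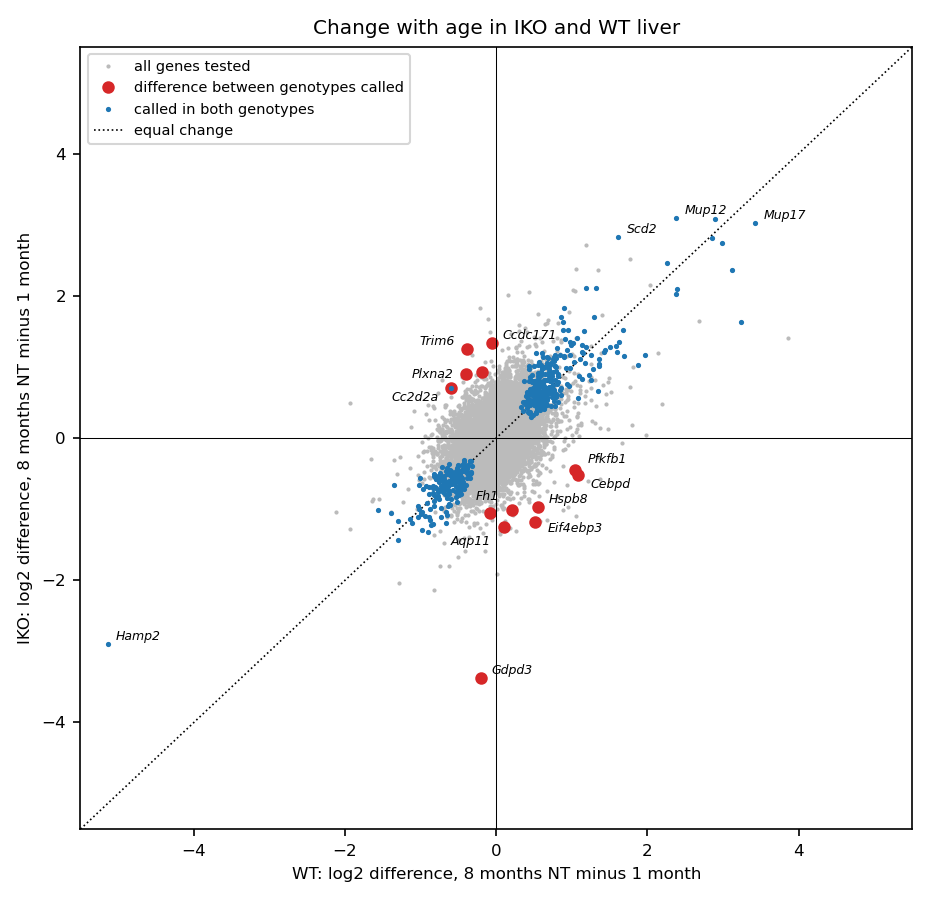
Log2 difference between 8-month non-tumour and 1-month liver in WT (x axis) and IKO (y axis) for each of 12966 genes; the dotted line marks equal change. Blue points are genes called in both genotypes and red points the genes whose change differed between them, with those named in the text labelled and Gdpd3 at −3.37 in IKO and −0.2 in WT.

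The IKO change differed from the WT change for 13 genes (0.1%), 5 more positive (0.0386%) and 8 more negative (0.0617%) in IKO, while 1779 genes had an unadjusted p under 0.05 (13.7%). Eif4ebp3, a repressor of translation initiation, read 35.5, 56.8, 38.9 and 35.6 in young IKO liver against 5.94, 0.98, 0.995 and 8.77 in young WT liver, and 15.3, 11.4, 4.08 and 3.78 against 9.58, 8.52, 12.1 and 12.1 at 8 months. The changes differed by −1.69 ± 0.33 (limma adjusted p = 0.0118). Cebpd, an inflammation-responsive transcription factor, read 176.4, 234.7, 219.5 and 124.9 against 56.4, 56.8, 47.8 and 58.1 at 1 month and 158.8, 102.4, 104.7 and 122.3 against 160.8, 124.2, 128.6 and 164.9 at 8 months (−1.61 ± 0.32, adjusted p = 0.0142). Its call was lost without IKO 8-month replicate 2. Plxna2, a semaphorin receptor, started below WT, at 62.1, 63, 43.4 and 74 against 112.9, 156.8, 137.4 and 112.9, and ended at 134.4, 122.3, 165.8 and 117.3 against 66, 65.8, 113.9 and 136.7 (1.31 ± 0.24, adjusted p = 0.0118).

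Fh1, the fumarase of the citric acid cycle, fell in IKO from 561.5, 543.5, 513.3 and 459.3 to 200, 288.8, 222.9 and 271.1 while WT moved from 349.6, 368.5, 272.7 and 323.3 to 323.7, 421.4, 359.1 and 426.3 (difference −1.21 ± 0.25, limma adjusted p = 0.0252). Differences that passed also included those of Trim6, Ccdc171 and Cc2d2a (1.63, 1.39 and 1.29) and of Hspb8, Pfkfb1 and Aqp11 (−1.52, −1.49 and −1.34). Over the alternatives 2 of the 11 named differences from WT kept their call in all that were run (Eif4ebp3 and Plxna2) and 9 lost it in at least 1, and leaving out single libraries moved the count of 13 to between 5 and 82. The IKO change differed from the SKO change for 43 genes (0.332%), 26 more positive (0.201%) and 17 more negative (0.131%), with 1273 genes under an unadjusted p of 0.05 (9.82%). Cyp3a11, a steroid- and drug-metabolising cytochrome, was the largest positive difference (2.93 ± 0.56, adjusted p = 0.00904). It lay at 1856.7 to 2928.8 in young and 1708.6 to 3995 in old IKO liver, not a called change, whereas SKO liver held 22454.1, 12012.7, 13309.7 and 16531.7 at 1 month and 3847.8, 2562.2, 1710.7 and 2893.3 at 8 months. Mup12 stayed at 1.98 to 22 in old SKO liver (difference 2.82 ± 0.65, adjusted p = 0.0325, lost under limma-voom).

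**Figure D5:**
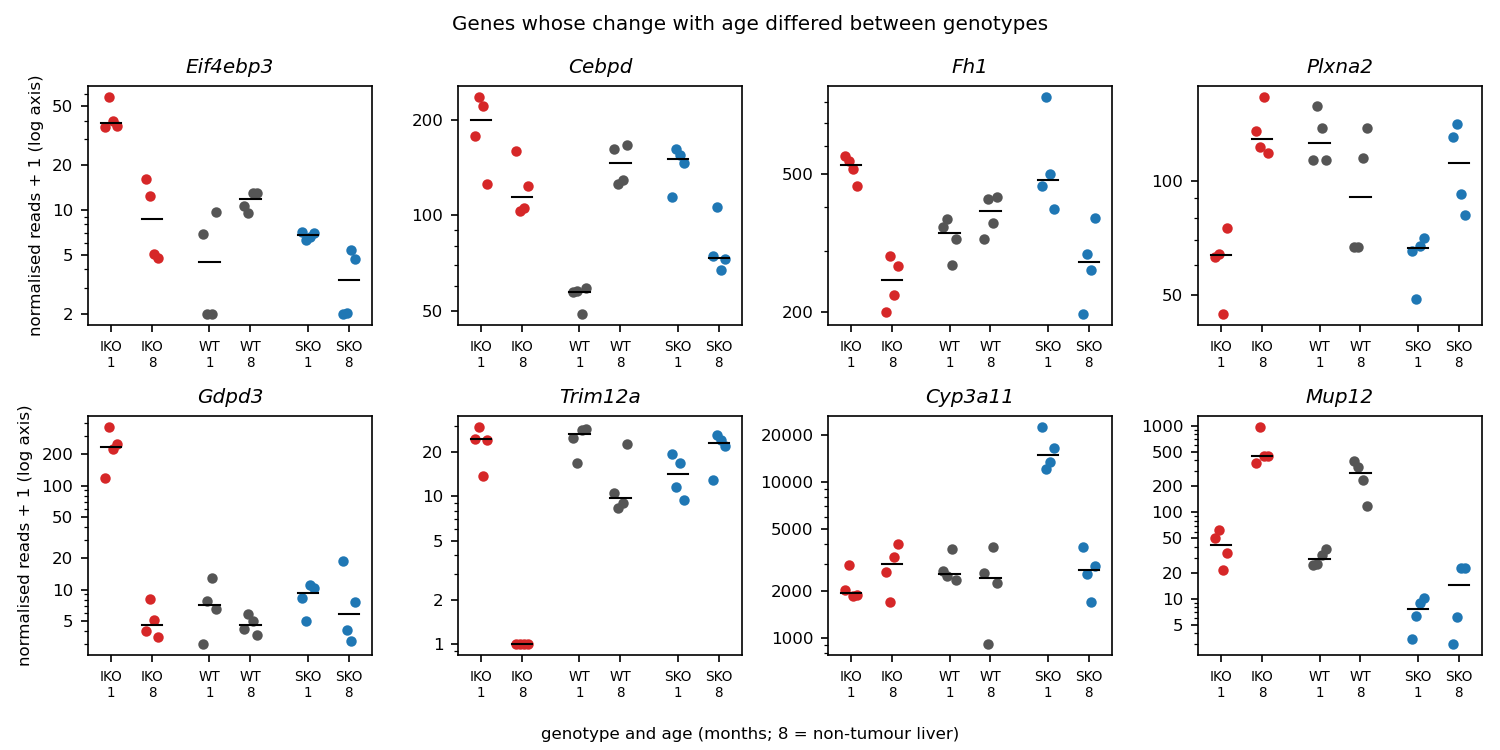
Normalised reads plus 1 (y axis, log scale) of 8 genes in each library of IKO, WT and SKO liver at 1 month and of non-tumour liver at 8 months (x axis); bars are medians. Gdpd3 is above 100 in the young IKO libraries alone, and Trim12a is at 0 in the old IKO libraries alone.

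Gdpd3, a lysophospholipase D (7:126766334-126775649, plus strand), was the largest fall. It read 116.5, 364.4, 220.7 and 247.9 in young IKO liver and 3.05, 7.11, 4.08 and 2.52 in old IKO liver (−3.37 ± 0.43, limma adjusted p = 2.05e-07). In young WT liver it read 1.98, 6.86, 11.9 and 5.48, and in young SKO liver 7.3, 3.99, 10.1 and 9.35, so the young IKO libraries were the high ones. The change differed from WT by −3.18 ± 0.61 (adjusted p = 0.0118) and from SKO by −3.29 ± 0.61 (adjusted p = 0.00646), both lost under limma-voom. Gdpd3 read 3.4, 92.9, 163.7 and 78.6 at 3 months and 238.3, 6.52, 208.3 and 7.78 at 5 months. Of these 8 libraries 3 lay within the young range, 2 lay between the old and the young range at 92.9 and 78.6, and 3 were under 10.

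Trim12a, a member of the tripartite-motif family (7:104299894-104315466, minus strand), followed the same libraries. It read 23.3, 28.4, 12.6 and 23.1 at 1 month and 0 in all 4 old libraries and all 4 IKO tumours, at least 5.22-fold lower in old liver when that group is set to 3 reads per library (limma adjusted p = 1.16e-06). At 3 months it read 0, 25.2, 16.8 and 7.71 and at 5 months 3.91, 0, 14.9 and 0. The 3 intermediate libraries at 0 for Trim12a, 3-month replicate 1 and 5-month replicates 2 and 4, were those under 10 for Gdpd3. WT liver read 15.7 to 27.4 at 1 month and 7.31 to 21.5 at 8 months. Aqp11, a water channel on the same chromosome (7:97724006-97738289, minus strand), read 285.6, 316.4 and 286.5 in those 3 libraries, against 288.3 to 751.2 in the other 5 intermediate ones, and Trim6, also on chromosome 7, read 12.5, 19.6 and 6.48 against 0 to 1.57. Of the 13 genes whose change differed from WT, 4 lay on chromosome 7 (30.8%), as did 9 of the 43 that differed from SKO (20.9%), against 963 of the 12695 genes with a position (7.6%). Among all genes called between the ages in IKO the share on chromosome 7 was 7.1%. These chromosome counts were made after the values were seen. At 3 and at 5 months libraries of the same age thus differed in Gdpd3, Trim12a and Trim6, while Aqp11 overlapped. What divided them was not tested. For Gdpd3, Trim12a, Aqp11 and Trim6 the difference between 1 and 8 months cannot be assigned to age.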

How the data were processed

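Liver RNA of 105 libraries was measured by MAPS on Illumina instruments, per the labels. The submitters' processing notes name STAR 2.7.10a, HTSeq 2.0.2, DESeq2 1.32.0 and the build GRCm38 (mm10). The authors deposited 1 table of 12966 genes as log2 values on a scale that compresses low counts. The values were tied to the recovered reads: 100.0% of them came out as whole reads within 0.05, and 0 reads lies at 3.8289. Levels are these reads divided by the library's size factor, and log2 differences are on the deposited scale, which understates changes of low genes. limma 3.58.1 (R 4.3.3) fitted 1 mean per group to the 60 libraries of the first sequencing group, with a trended prior and 45 residual degrees of freedom. Tests were two-sided, Benjamini-Hochberg adjustment ran over all 12966 genes, and genes were called at an adjusted p under 0.05. The filter (mean log2 of at least 3) removed 0 genes. limma-voom on the recovered reads, library weights, fewer groups, a stricter filter, quantile normalisation, a replicate block and each library left out in turn were tried. A correction for GC content and length (12695 genes, 97.9%) was added after seeing the data. Of 120 pairs of IKO libraries none agreed within sampling noise (lowest chi-square per gene 6.866).

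The comparison, the gene lists and the marker lists were chosen with earlier results of these data known. Named genes were the 12 largest rises and falls without overlap between the groups, up to 4 called members of each list by p, the 6 largest differences in each direction between genotypes and the 3 largest rises and falls of each step, predicted genes passed over. Lists are described by counts and medians without a test. Gene positions came from the GENCODE annotation of GRCm38 and promoter windows from RefSeq. The steps were tested on simulated data with known changes. At these depths a gene under about 3 reads per library allows no statement on its change. Some genes that passed a test are not reported here.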

Additional observations from a re-analysis of the deposited data

Results flagged for a closer look

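In groups of 4 libraries, 14 of 282 gene and group combinations (5%) had a library far from the other 3, where chance gives 1 in 20. The genes were named from these data and are not independent, so this share does not test whether a whole library stood apart. At 1 month all 8 such combinations involved replicate 2. It was the highest for Mup1 (237.2 normalised reads against 65.5 to 77.8), Eif4ebp3 (56.8 against 35.5 to 38.9) and Cyp3a11 (2928.8 against 1856.7 to 2018.5). It was the lowest for Tm7sf2 (227.3 against 368 to 375.1), Psmb10 (649.7 against 685.8 to 688.9), Col3a1 (33.4 against 56 to 60.5), Ttr (35986.4 against 46310.6 to 48226.2) and Apoa1 (70889.4 against 109710.6 to 112791.3). At 8 months replicate 1 was the highest for Asl (1598.8 against 753 to 870.1) and Stab2 (426 against 337.2 to 351.8) and the lowest for Dbp (476.4 against 682.9 to 698.6). Replicate 2 was the highest for Mup12 (974.5 against 369.5 to 449.9), and replicate 3 for Cidec (606.2 against 148 to 206.8) and Saa3 (281.4 against 76.8 to 99.3).

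The change from 1 to 8 months differed between IKO and WT, by the limma test of the difference, for Gdpd3 (−3.18), Eif4ebp3 (−1.69), Cebpd (−1.61), Hspb8 (−1.52), Pfkfb1 (−1.49), Aqp11 (−1.34), Fh1 (−1.21), Cc2d2a (1.29), Plxna2 (1.31), Ccdc171 (1.39) and Trim6 (1.63 on the log2 scale). Ccdc171 lost its call under 16 of 25 alternatives.

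Between IKO and SKO it differed for Gdpd3 (−3.29), Trim12a (−1.96), Eif4a1 (−1.95), Clec2h (−1.95), Trim30d (−1.79), Pla1a (−1.53), Fam131c (1.95), Aldh3a2 (1.97), Saa3 (1.98), Elobl (2.11), Mup12 (2.82) and Cyp3a11 (2.93). Over the alternatives 4 of these 12 kept their call in every one run (Cyp3a11, Aldh3a2, Fam131c and Trim12a). Elobl was at 0 in all 4 young IKO libraries and at 1.53, 0, 0 and 0 in the old ones, so its difference came from the SKO libraries.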

How the results depend on the processing

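The count of 2564 genes called between the ages stayed within 1.5 times under each alternative run, from 2139 with GC content and length corrected for to 3379 with library weights, and from 1768 (without 8-month replicate 2) to 2302 with single libraries left out. The replicate block gave 2595. Same-numbered libraries correlated at only 0.01 to 0.12, and 3 of 4 lay closest to their own number, so the numbers were not taken as pairs. Over all comparisons 4 named calls were lost under the block: COX1, Mki67 and Sod2 between the ages, and Ccdc171 for IKO against WT. Of the 111 named genes called, 87 kept their call in all alternatives run and 24 lost it in at least 1; leaving out 8-month replicate 2 ended 18 named calls and each other library 8 to 12. Chuk, never called, changed sign from 0.08 to −0.107 with the GC correction and −0.017 without 8-month replicate 2, and Ikbkg from −0.06 to 0.008 and 0.01 without 1-month replicates 1 and 2; with single libraries left out Chuk ran from −0.017 to 0.237 and Ikbkg from −0.124 to 0.01.

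Other counts moved, and the cause was not tested. Library weights gave 1292 genes between 1 and 3 months in place of 700, 1714 in place of 908 in WT, 168 in place of 13 for IKO against WT and 268 in place of 43 for IKO against SKO. Only the groups compared gave 21 in place of 241 between 3 and 5 months, 511 in WT, 44 against WT and 90 against SKO. limma-voom gave 75 between 3 and 5 months and 44 against WT, and the GC correction 89 between 3 and 5 months. Against WT, quantile normalisation gave 22, non-tumour groups alone 21 and the stricter filter 37. With single libraries left out the counts ran 369 to 612 (1 to 3 months), 78 to 284 (3 to 5 months), 3021 to 3470 (5 to 8 months), 485 to 965 (WT), 2159 to 3280 (SKO), 5 to 82 (against WT) and 9 to 73 (against SKO).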

Other observations

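Several called genes outside the lists differed widely between the ages. Nalf2 read 0, 0, 1.14 and 0.961 normalised reads at 1 month and 55, 92.5, 118.3 and 66.8 at 8 months (2.72 ± 0.47, limma adjusted p = 3.97e-05), and 32, 7.11, 63.9 and 30.5 in the IKO tumours. Akr1c18, a progesterone-metabolising reductase, read 3.33, 0, 0 and 2.88 against 10.7, 163.6, 19 and 382.1, with old replicates 2 and 4 far above the other old libraries and a call that limma-voom did not make. Cfd, the complement factor also known as adipsin, read 2.22, 7.41, 30.9 and 10.6 against 109.9, 213.4, 379.2 and 174, also not called by limma-voom. Nrep fell from 622.5, 769.6, 683.7 and 666.8 to 175.6, 177.8, 95.1 and 322.8 (−1.79 ± 0.39, adjusted p = 0.000628), and Keg1, a glycine acyltransferase-like gene, from 1358.2, 1385.9, 1418.8 and 1350 to 465.7, 561.9, 343.9 and 636.8 (−1.44 ± 0.32, adjusted p = 0.000764).

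Igfbp1 moved in opposite directions in the 2 tissues of the older organs: 1111.7, 291.6, 285.4 and 931.9 in non-tumour liver and 14616.6, 25473.5, 15883.4 and 15565.6 in tumours, around 2616.6, 3569.9, 4104.3 and 1026.2 at 1 month. The tumour values were not tested here.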
